A study of Mus musculus with 111 samples.

Results

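The 37 genes described here are known for their expression in the endothelium, the cell layer that lines blood and lymphatic vessels. They were chosen by name, and each was followed through the probesets (groups of array probes) annotated to it and to no other gene. Of the 37, 36 had such a probeset among the 15707 genes measured. Ramp2, which encodes the partner protein of the receptor Calcrl, was left out because both of its probesets were shared with other genes. By the vessels in which they are best known, the measured genes comprise 8 capillary genes, 5 large-vessel genes, 3 lymphatic genes and 20 pan-endothelial genes that are found in most vessels.

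The study examined when lung gene expression changes after injury with bleomycin, an anticancer drug that damages DNA and is instilled into rodent airways to produce inflammation followed by fibrosis. Bleomycin-treated mice received a single intratracheal dose of 2 U/kg, and their controls received intratracheal saline. All were male C57BL6/J mice, 7 to 9 weeks of age, without any genetic modification, and lungs were taken on days 1 and 2, on days 7 and 14, and on days 21, 28 and 35. RNA of the whole left and right lungs of each mouse was measured on 1 Affymetrix mouse expression array, giving 56 bleomycin and 55 saline arrays, with 8 mice in each group except saline on day 14, which held 7.

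Pulmonary capillaries form a dense mesh in the alveolar walls, and their endothelium depends on signals from the VEGF receptor Kdr, the angiopoietin receptor Tek and the bone morphogenetic protein receptor Acvrl1. Larger veins and venules carry the selectins, which slow passing leukocytes so that they can enter the tissue. Lymphatic endothelium is specified by the transcription factor Prox1. Whole lungs were homogenized. A lower level in the following results can therefore come from fewer endothelial cells, from less RNA per cell or from more RNA of other cells. These cannot be told apart.

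Levels are given on the log2 scale of the deposited values, on which a difference of 1 is a 2-fold change, and fold changes are bleomycin over saline. Differences were tested with limma, and a gene was called higher or lower at a Benjamini-Hochberg adjusted p below 0.05 over all 15707 genes. No 2 arrays were identical, and the median of each array lay between 8.61 and 8.73. The mean level of 5 lung-defining genes (Sftpc, Sftpb, Ager, Scgb1a1 and Foxj1) lay between 13.1 and 13.5 in every mouse. The following arrays correlated least with their own group, with median correlations of 0.978 for bleomycin day 35 replicate 3, 0.979 for bleomycin day 21 replicate 4, 0.983 for bleomycin day 21 replicate 7 and 0.979 for saline day 7 replicate 3. In that saline lung, 30 of the 36 genes had the lowest level of the group. Genes whose call changed on the day of the array left out are named with the results.

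Few endothelial genes were called on days 1 and 2, and most were lower from day 7 to day 35. On day 1, 6 genes were higher and 2 lower in bleomycin lungs, where 14.7% of all genes were called higher and 16.7% lower. On day 2, 4 were higher and 4 lower, against 14.2% and 13.1% of all genes. With arrays weighted by their quality, 9 were lower on day 2, as Cldn5, Egfl7, Erg, Tie1 and Tmem100 joined the 4. On day 7, 25 of the 36 were lower and 2 higher, while 21.9% of all genes were lower and 25.7% higher. Without saline day 7 replicate 3, 27 were lower on that day, as Gpihbp1 and Sox18 joined the original 25 (adjusted p = 0.043 and 0.012).

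The decrease was still present 5 weeks after the dose. On day 14, 21 genes were lower and 2 higher, against a background of 19.7% lower and 21.9% higher. The count was greatest on day 21, when 27 were lower and 1 was higher, with 18.9% of all genes lower and 20.5% higher. Without bleomycin day 21 replicate 4, Npr3 was added to the lower and Selp to the higher genes (adjusted p = 0.048 and 0.044). On day 28, 19 were lower and 1 higher (11.8% and 11.5% of all genes), and on day 35, 20 were lower and 2 higher (12.5% and 16.9% of all genes). Leaving out bleomycin day 35 replicate 3 reduced the last count to 15, with Acvrl1, Egfl7, Icam2, Pecam1 and Ptprb no longer called (adjusted p between 0.063 and 0.13). The median log2 fold change of the 36 genes was 0.02 on day 1, -0.02 on day 2, -0.35 on day 7, -0.31 on day 14, -0.43 on day 21, -0.23 on day 28 and -0.19 on day 35, whereas the median of all genes stayed between -0.01 and 0.02.

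**Figure D1:**
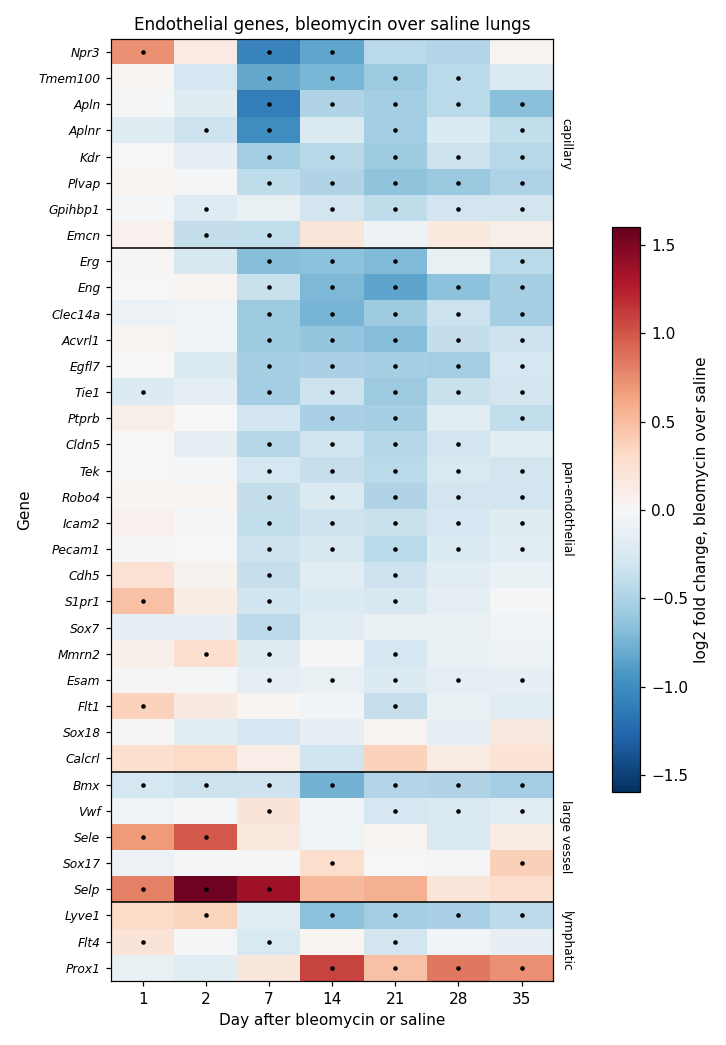
Log2 fold change (bleomycin over saline) of the 36 endothelial genes, in rows grouped by vessel class, on each of the 7 days, in columns. Black dots mark an adjusted p below 0.05. Blue fills most capillary and pan-endothelial rows from day 7 onward, while increases above 0.6 were those of Selp on days 1, 2 and 7, Sele on days 1 and 2, Npr3 on day 1 and Prox1 on days 14, 28 and 35.

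Most of these differences were modest. Of all genes, 5.21% were called with a change of more than 2-fold on at least 1 day. Among the endothelial genes, 4 met this criterion: Apln and Npr3 were lower, and Selp and Prox1 were higher. Aplnr, at 2.00-fold lower on day 7, lay just short of it. Npr3 and Prox1 met it only by the probeset used. Their other probesets gave log2 fold changes of -0.76 and -0.70 for Npr3 on day 7 and 0.96 for Prox1 on day 14. Sox18, a transcription factor, and Calcrl, the receptor of adrenomedullin, were the 2 genes not called on any day. Calcrl depended on the probeset: the mean of its 3 probesets was called higher on days 1 and 2 (log2 fold changes 0.25 and 0.33), and its brightest was called lower on day 14 (-0.11).

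The timing of the shift was tested directly as the change of the bleomycin response between periods. From days 1 and 2 to days 7 and 14, the response moved down in 26 of the 36 genes and up in 1, Prox1, against 15.8% and 20.4% of all genes. From days 7 and 14 to days 21, 28 and 35, it moved up in 2 genes (Npr3 and Tmem100) and down in 1 (Vwf), against 11.9% and 14.9% of all genes. A missed threshold in the other 33 does not show that their response stayed equal.

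Capillary genes showed the deepest median decrease of the 4 classes on days 7, 14, 21, 28 and 35. On day 7 their median log2 fold change was -0.69, with 7 of 8 genes lower. Of all genes, 21.9% were lower and 25.7% higher on that day. The pan-endothelial genes had a median of -0.37, with 16 of 20 lower, and the lymphatic genes a median of -0.17, with 1 of 3 lower. The large-vessel genes had a median of 0.16, with 2 of 5 higher (Selp and Vwf) and 1 lower (Bmx). The capillary median was -0.46 on day 14, -0.54 on day 21, -0.39 on day 28 and -0.34 on day 35, and the corresponding large-vessel medians were -0.05, -0.0011, -0.23 and 0.12. The classes were compared as a description only. The capillary median on day 7 was -0.48 when the brightest probeset of each gene was used, and the large-vessel median on that day was -0.023 without the dimmest 30% of genes, which include Selp and Sele. With that filter the large-vessel median was -0.27 on day 21 and -0.17 on day 35, where the sign turned.

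**Figure D2:**
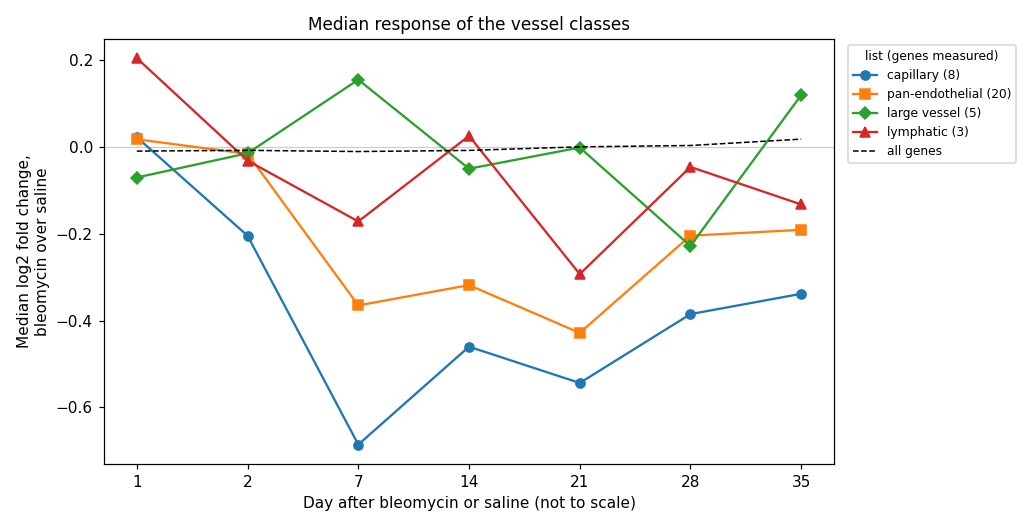
Median log2 fold change (bleomycin over saline) of each class on each day, with the number of genes measured in parentheses and the median of all genes as a dashed line. The capillary line reaches -0.69 on day 7 and the pan-endothelial line -0.43 on day 21, while the large-vessel line stays between -0.23 and 0.16.

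Among capillary genes, Apln fell most on day 7, and the gene of its receptor fell with it. Apln encodes the peptide apelin and Aplnr its receptor, which are found in different types of lung capillary cell in the mouse. On day 7, Apln ranged from 8.54 to 9.68 (median 9.09) in bleomycin lungs and from 9.83 to 10.45 (median 10.16) in saline lungs. Every bleomycin lung lay below every saline lung, and the level was 2.15-fold lower (log2 fold change -1.11, SE 0.14, adjusted p = 4.3e-11). Aplnr averaged 10.81 ± 0.33 in bleomycin lungs and 11.81 ± 0.20 in saline lungs on that day (SD, n = 8 each), with 7 bleomycin lungs below all saline lungs (log2 fold change -0.998, adjusted p = 5.2e-10). A second Aplnr probeset gave a log2 fold change of -0.55. The saline mean of Aplnr was at its highest on day 7 and at its lowest on day 21 (11.25). On day 35 Apln was still 1.58-fold lower (adjusted p = 9.2e-05), averaging 9.33 ± 0.51 in bleomycin lungs and 9.99 ± 0.15 in saline lungs (SD, n = 8 each).

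Npr3, the clearance receptor for natriuretic peptides, changed direction. On day 1 it was 1.66-fold higher in bleomycin lungs (10.13 ± 0.64, against 9.39 ± 0.26 in saline lungs, SD, n = 8 each, adjusted p = 0.0059), with 5 bleomycin lungs above all saline lungs. On day 7 it ranged from 8.54 to 10.07 (median 9.73) in bleomycin lungs and from 10.18 to 11.36 (median 10.48) in saline lungs. The groups did not overlap on day 7, when Npr3 was 2.09-fold lower (log2 fold change -1.06, SE 0.22, adjusted p = 2.1e-05). It was 1.77-fold lower on day 14, again without overlap, and on day 35 it averaged 9.84 ± 0.54 in bleomycin lungs and 9.80 ± 0.32 in saline lungs (SD, n = 8 each, adjusted p = 0.92). Between days 7 and 14 and the later days, its response moved up by 0.66 (adjusted p = 0.0086). Saline lungs themselves varied in Npr3 by 1.58 on the log2 scale between their lowest day mean (day 1) and their highest (day 2), the widest such range of the 36 genes, and the increase on day 1 was not called with the brightest Npr3 probeset. On day 7 the other Npr3 probesets gave smaller log2 fold changes, of -0.76 and -0.70.

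Kdr, Plvap and Gpihbp1 were still lower on day 35, unlike Npr3. Kdr, the main VEGF receptor of endothelium, averaged 11.58 ± 0.15 in bleomycin lungs and 12.14 ± 0.10 in saline lungs on day 7 (SD, n = 8 each), with no overlap (log2 fold change -0.56, SE 0.09, adjusted p = 1.6e-07), and it was lower on each of days 7, 14, 21, 28 and 35. Plvap, a protein of the diaphragms that span capillary pores, was also lower on those 5 days. On day 21 Plvap ranged from 11.24 to 12.70 (median 12.12) in bleomycin lungs and from 12.43 to 12.85 (median 12.64) in saline lungs, with 6 bleomycin lungs below all saline lungs (log2 fold change -0.64, SE 0.11, adjusted p = 9.8e-07). Gpihbp1, which carries lipoprotein lipase across capillary endothelium, was lower on days 2, 14, 21, 28 and 35. Emcn, a sialomucin of the endothelial surface, differed from these: it was lower on days 2 and 7 alone, averaging 11.39 ± 0.14 in bleomycin lungs and 11.79 ± 0.13 in saline lungs on day 7 (SD, n = 8 each), without overlap (log2 fold change -0.40, SE 0.08, adjusted p = 1.6e-05).

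**Figure D3:**
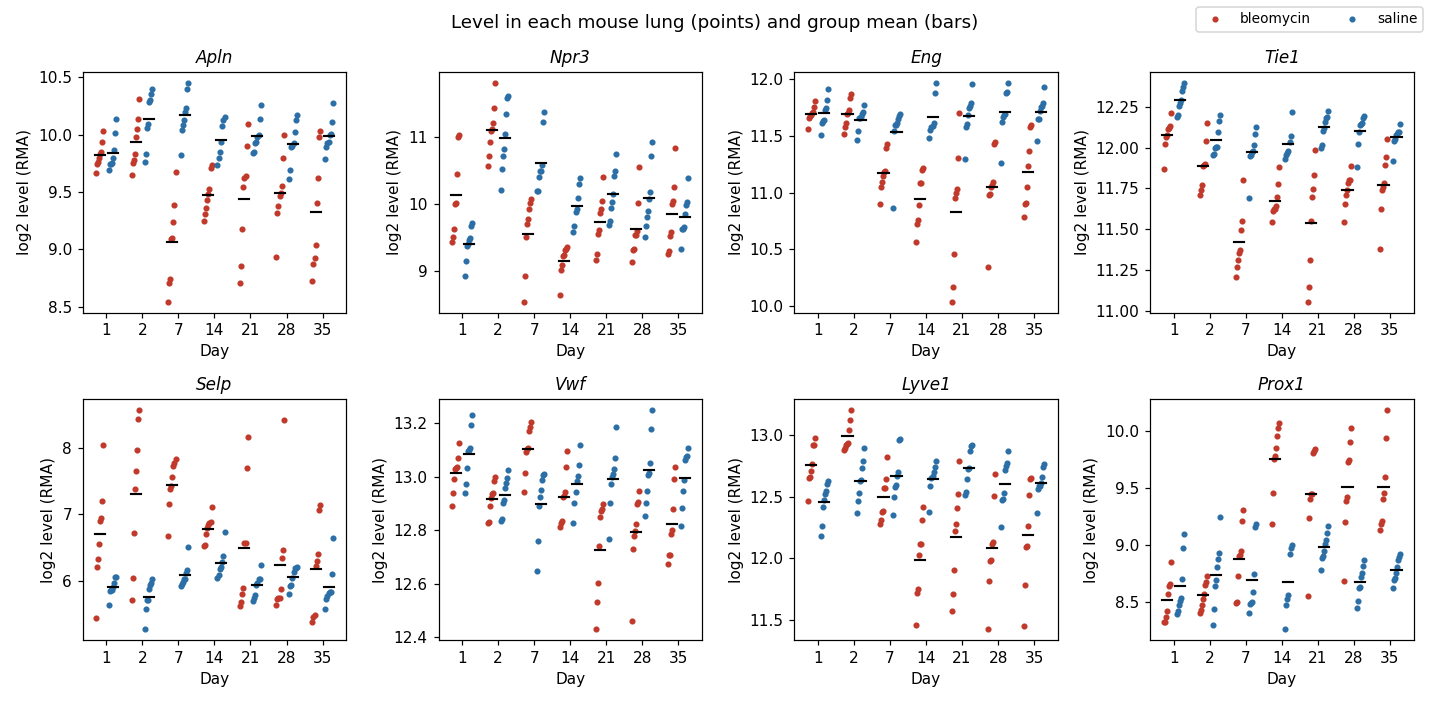
Log2 level of 8 endothelial genes in each mouse lung (points) by day, with bleomycin in red at the left and saline in blue at the right of each day, and group means as black bars. Apln and Npr3 separate fully on day 7, Eng and Tie1 stay low to day 35 with a wide spread on day 21, and Selp and Prox1 rise at different times.

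Of 6 growth factor receptors and kinases, Kdr included, 5 were lower on day 7 and all 6 on day 21, with differences on other days. The shares of all genes lower were 21.9% on day 7 and 18.9% on day 21. Tie1, an orphan partner of the angiopoietin receptor, was already lower on day 1 (12.07 ± 0.10 in bleomycin lungs and 12.29 ± 0.08 in saline lungs, SD, n = 8 each, adjusted p = 0.02), where 7 bleomycin lungs lay below all saline lungs, although this call was lost when array medians were subtracted (adjusted p = 0.052). On day 21 Tie1 ranged from 11.06 to 11.98 (median 11.62) in bleomycin lungs and from 11.996 to 12.22 (median 12.14) in saline lungs, with no overlap (log2 fold change -0.58, SE 0.07, adjusted p = 6.7e-10). Tek, the angiopoietin receptor itself, was lower from day 7 to day 35, most on day 21 (log2 fold change -0.43, adjusted p = 1.4e-08). Flt1, a VEGF receptor that also acts as a decoy, was higher on day 1 (log2 fold change 0.37, adjusted p = 0.0026) and lower on day 21 (log2 fold change -0.36, adjusted p = 0.0017). Its 4 probesets differed on day 7, from -0.25 to 0.04. Of the ligands of these receptors, Angpt2, an antagonist or weak agonist of Tek, was lower on all 7 days, most on day 7 (log2 fold change -0.89). Vegfa was lower on days 7 and 14 (-0.26 and -0.33), and Pgf, the placental growth factor bound by Flt1, was higher on days 2, 7, 14 and 35, by 0.95 on day 7.

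Genes of the BMP9 and BMP10 receptor complex fell together. Acvrl1 (ALK1) is the receptor of these ligands on endothelium, Eng (endoglin) is its co-receptor, and Tmem100 is induced by the complex. All 3 were lower on each of days 7, 14, 21 and 28. Eng ranged on day 21 from 10.04 to 11.70 (median 10.97) in bleomycin lungs and from 11.30 to 11.96 (median 11.71) in saline lungs, and 6 bleomycin lungs lay below all saline lungs. It was 1.80-fold lower (log2 fold change -0.85, SE 0.12, adjusted p = 3.4e-08), the largest decrease of any of the 36 genes on that day, and a second Eng probeset gave -0.60. Acvrl1 averaged 11.74 ± 0.43 in bleomycin lungs and 12.42 ± 0.09 in saline lungs on day 21 (SD, n = 8 each, log2 fold change -0.68, adjusted p = 1.7e-08). Tmem100 was 1.76-fold lower on day 7 without overlap (10.41 ± 0.28 in bleomycin lungs and 11.22 ± 0.17 in saline lungs, SD, n = 8 each, adjusted p = 6.5e-07). Brighter probesets gave smaller log2 fold changes, of -0.35 for Tmem100 on day 7 and -0.40 for Acvrl1 on day 21. Among 8 other genes of this pathway, 4 were lower and 1 higher on day 7, and 3 were lower and 2 higher on day 14. The shares of all genes were 21.9% lower and 25.7% higher on day 7, and 19.7% and 21.9% on day 14. Smad6, an inhibitor induced by the pathway, and Bmpr2, its type II receptor, had log2 fold changes of -0.79 and -0.77 on day 14. Id1 and Id3, classical targets, had 0.00 and -0.06 on day 14 and were not called, although Id3 was lower on day 7. Id2 went the other way and was higher on days 14, 21, 28 and 35. Gja4, also counted among the artery genes below, was higher on days 7, 14, 21 and 35.

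Most junction and adhesion genes were lower from day 7 onward. Of 9 such genes, 8 were lower on day 7 and all 9 on day 21, with a median log2 fold change of -0.43 on day 21. Of all genes, 21.9% were lower on day 7 and 18.9% on day 21. Pecam1 (CD31), an adhesion molecule of endothelial contacts that leukocytes and platelets also carry, averaged 11.77 ± 0.37 in bleomycin lungs and 12.19 ± 0.07 in saline lungs on day 21 (SD, n = 8 each, log2 fold change -0.43, SE 0.07, adjusted p = 3.9e-07). Its bleomycin values ranged from 11.28 to 12.31 (median 11.80) and its saline values from 12.12 to 12.31 (median 12.20), so that 2 bleomycin lungs lay within the saline range. Cdh5 (VE-cadherin), the cadherin of endothelial junctions, ranged on day 7 from 7.95 to 8.90 (median 8.51) in bleomycin lungs and from 8.50 to 9.20 (median 8.90) in saline lungs (log2 fold change -0.37, SE 0.11, adjusted p = 0.0043). By this probeset Cdh5 was called lower on days 7 and 21, with overlapping groups on both days, whereas its brighter probeset was called lower on days 14, 28 and 35 as well (log2 fold changes -0.21, -0.28 and -0.23). Clec14a, a surface lectin of endothelium, fell further: on day 14 it ranged from 11.04 to 11.63 (median 11.24) in bleomycin lungs and from 11.97 to 12.12 (median 12.05) in saline lungs, without overlap (log2 fold change -0.74, SE 0.11, adjusted p = 4.9e-08).

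The transcription factors did not share 1 direction. Erg, an ETS factor that maintains endothelial identity, was lower on days 7, 14, 21 and 35. On day 21 it ranged from 8.79 to 9.94 (median 9.53) in bleomycin lungs and from 9.80 to 10.37 (median 10.10) in saline lungs, with 7 bleomycin lungs below all saline lungs (log2 fold change -0.71, SE 0.13, adjusted p = 9.6e-06). On day 28 its difference was -0.12 (adjusted p = 0.56). That was the day on which the saline mean of Erg was lowest, at 9.62, against 10.30 on day 2, its highest. Sox17, of arteries, was higher on days 14 and 35. On day 35 Sox17 ranged from 8.44 to 8.86 (median 8.77) in bleomycin lungs and from 8.21 to 8.45 (median 8.34) in saline lungs, with 7 bleomycin lungs above all saline lungs (log2 fold change 0.38, SE 0.08, adjusted p = 0.0003), although its brightest probeset gave 0.17 and was not called. That probeset gave 0.05 on day 14, where the call was also lost with the mean of the probesets. Sox7 was lower on day 7 by a dim probeset (log2 fold change -0.42), and on day 21 its brighter probeset gave 0.25 where the dim one gave -0.11, so no direction is given for Sox7 on day 21.

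ETS factors such as Erg recognize sites with the core GGAA. RefSeq promoter sequences on GRCm38.p6 matched 19 of the 37 genes by symbol, and the 250 bases before each start site were searched on both strands for AGGAAG, a short form of such a site. It was present for 11 of the 19 genes (57.9%) and for 32.3% of the 27025 genes of the promoter table. A match is only a string of letters and not a measured binding site. The following promoters are shown because each belongs to a gene described at length: Eng, Kdr and Bmx, which were lower on day 7 and on every later day, and Sele, which was higher early. Those of Eng and Sele hold the letters AGGAAG and those of Kdr and Bmx do not. The Kdr and Bmx promoters still hold the core GGAA on the strand shown and, as TTCC, on the opposite strand, and such other forms were not counted. Capitals mark the matches on either strand, so that CTTCCT is a match on the opposite strand.
Eng (chr2:32646345-32646594, plus strand): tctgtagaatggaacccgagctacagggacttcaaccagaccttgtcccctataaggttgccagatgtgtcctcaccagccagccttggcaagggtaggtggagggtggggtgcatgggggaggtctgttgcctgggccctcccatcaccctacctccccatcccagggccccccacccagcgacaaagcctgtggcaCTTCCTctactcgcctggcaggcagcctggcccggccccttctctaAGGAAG
Kdr (chr5:75978456-75978705, minus strand): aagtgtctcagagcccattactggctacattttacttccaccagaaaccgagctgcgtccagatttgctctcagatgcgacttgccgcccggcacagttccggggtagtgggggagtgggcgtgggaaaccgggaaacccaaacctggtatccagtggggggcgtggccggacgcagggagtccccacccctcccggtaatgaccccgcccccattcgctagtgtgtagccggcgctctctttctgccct
Bmx (chrX:164258194-164258443, minus strand): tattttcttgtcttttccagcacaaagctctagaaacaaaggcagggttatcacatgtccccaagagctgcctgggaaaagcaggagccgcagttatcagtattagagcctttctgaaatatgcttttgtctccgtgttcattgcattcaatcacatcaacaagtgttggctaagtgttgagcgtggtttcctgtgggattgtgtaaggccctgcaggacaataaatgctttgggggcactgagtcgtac
Sele (chr1:164047984-164048233, plus strand): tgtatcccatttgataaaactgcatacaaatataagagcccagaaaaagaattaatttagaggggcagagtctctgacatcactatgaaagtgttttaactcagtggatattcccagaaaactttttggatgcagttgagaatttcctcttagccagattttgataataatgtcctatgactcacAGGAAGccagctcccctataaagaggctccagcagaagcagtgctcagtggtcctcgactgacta

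The selectins rose early and were not called higher after day 7. Selp (P-selectin), which tethers leukocytes to venules, ranged on day 2 from 5.71 to 8.58 (median 7.51) in bleomycin lungs and from 5.27 to 6.02 (median 5.79) in saline lungs, with 7 of 8 bleomycin lungs above all saline lungs (2.94-fold, log2 fold change 1.56, SE 0.28, adjusted p = 7.7e-06). On day 7, when most endothelial genes were lower, Selp was 2.56-fold higher with no overlap (7.44 ± 0.39 in bleomycin lungs and 6.08 ± 0.19 in saline lungs, SD, n = 8 each, adjusted p = 2.9e-05). Its 3 probesets gave log2 fold changes between 1.02 and 1.36 on day 7. Sele (E-selectin), which cytokines induce on endothelium, was higher on days 1 and 2 only. On day 2 Sele ranged from 6.22 to 7.69 (median 7.19) in bleomycin lungs and from 5.74 to 6.28 (median 5.998) in saline lungs, with 6 bleomycin lungs above all saline lungs (log2 fold change 0.99, SE 0.21, adjusted p = 0.00016), and its response moved down by 0.79 from days 1 and 2 to days 7 and 14 (adjusted p = 0.0021). Of 7 vein and activated-endothelium genes, 2 were higher on day 7 (Ackr1 and Icam1) and 0 lower, with a median log2 fold change of 0.15. Of all genes, 25.7% were higher and 21.9% lower on that day, so the count of higher genes lay near that share. Ackr1, the chemokine-binding receptor of venules, was higher from day 2 to day 35 (log2 fold change 1.87 on day 7), and Vcam1 was higher on days 1, 2 and 14. Nrp2 was lower on day 1 and higher on day 14, and Ephb4 was lower on day 21.

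Vwf (von Willebrand factor), a clotting protein stored in endothelium and platelets, was slightly higher on day 7 and lower on days 21, 28 and 35. On day 7 it averaged 13.10 ± 0.09 in bleomycin lungs and 12.90 ± 0.13 in saline lungs (SD, n = 8 each), with 7 bleomycin lungs above all saline lungs (log2 fold change 0.20, adjusted p = 0.0021). On day 21 it ranged from 12.43 to 12.90 (median 12.80) in bleomycin lungs and from 12.77 to 13.19 (median 13.004) in saline lungs, with 4 bleomycin lungs below all saline lungs (log2 fold change -0.27, SE 0.06, adjusted p = 0.00011). Between days 7 and 14 and the later days its response fell by 0.30 (adjusted p = 5.7e-06). The saline mean of Vwf was lowest on day 7 and highest on day 1 (13.08). An F test over the 7 saline days did not call Vwf (adjusted p = 0.082). Of 6 platelet markers, 3 were lower on day 7, 4 on day 14 and 0 on day 21. On day 28, 1 was lower, and on day 35, 5 were. For all genes the shares lower on the same 5 days were 21.9%, 19.7%, 18.9%, 11.8% and 12.5%. The mean level of the platelet markers on day 7 spanned 8.28 to 8.65 in bleomycin lungs and 8.63 to 8.97 in saline lungs. Their part in the Vwf and Selp results was not tested.

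Bmx, a cytoplasmic kinase of arterial endothelium, was the one gene of the 36 called lower on all 7 days, although its call on day 2 was lost when each day was fitted alone (adjusted p = 0.064). On day 14 it ranged from 7.21 to 7.63 (median 7.56) in bleomycin lungs and from 8.13 to 8.39 (median 8.21) in saline lungs, with no overlap (1.70-fold lower, log2 fold change -0.76, SE 0.10, adjusted p = 5.5e-10). On day 35 it averaged 7.83 ± 0.15 in bleomycin lungs and 8.37 ± 0.18 in saline lungs (SD, n = 8 each), again without overlap. Of 8 other artery genes, 2 were higher and 4 lower on day 7, and 3 were higher and 4 lower on day 14. The shares of all genes were 25.7% higher and 21.9% lower on day 7, and 21.9% and 19.7% on day 14. The count of higher artery genes on day 7 thus lay near the share of all genes. Cxcl12, a chemokine that other lung cells also make, was higher by 1.21 on day 7, and Gja4, a gap junction protein, by 0.62 on day 14, while Efnb2, the arterial ephrin, was lower by 0.53 on both days.

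Prox1 and Lyve1, both lymphatic genes, moved in opposite directions. Prox1, the transcription factor named above, ranged on day 14 from 9.18 to 10.07 (median 9.81) in bleomycin lungs and from 8.26 to 8.996 (median 8.56) in saline lungs, with no overlap (2.12-fold higher, log2 fold change 1.09, SE 0.15, adjusted p = 1.2e-09), and it stayed higher on days 21, 28 and 35 (log2 fold changes 0.47, 0.84 and 0.73). A second, dimmer Prox1 probeset gave 0.96 on day 14. Lyve1, a hyaluronan receptor of lymphatic vessels, was higher on day 2 (12.99 ± 0.12 in bleomycin lungs and 12.63 ± 0.17 in saline lungs, SD, n = 8 each, adjusted p = 0.022) and lower from day 14 onward. On day 14 Lyve1 ranged from 11.46 to 12.42 (median 12.07) in bleomycin lungs and from 12.38 to 12.79 (median 12.67) in saline lungs, with 7 bleomycin lungs below all saline lungs (log2 fold change -0.66, SE 0.13, adjusted p = 1.6e-05). Some macrophages of the lung interstitium also carry Lyve1. Flt4, the receptor of VEGF-C, was higher on day 1 (log2 fold change 0.20) and lower on days 7 and 21 (-0.24 and -0.29).

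Some other genes listed as lymphatic were higher on the days when Prox1 was, unlike Lyve1 and Flt4. Of 5 measured, 4 were higher on day 14, 3 on day 21, 2 on day 28 and 3 on day 35. None was lower on those days, when 21.9%, 20.5%, 11.5% and 16.9% of all genes were higher. The 4 of day 14 were Pdpn, Mmrn1, Reln and Thy1. Pdpn, also an alveolar type I marker, was already higher on day 7, when Prox1 was not called. Mmrn1, a secreted protein of lymphatic endothelium and platelets, was higher on days 14, 21, 28 and 35 (log2 fold changes 0.58, 0.54, 0.83 and 0.68), and Reln was higher on days 14, 28 and 35 (0.61, 0.61 and 0.55). Vegfc, the main lymphatic growth factor, was higher on days 7 and 14 (0.28 and 0.41), and Vegfd, the other ligand of Flt4, was lower on days 21, 28 and 35 (-0.45, -0.33 and -0.42).

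Most endothelial genes outside the 36 were also lower on days 7, 14 and 21. Of 27 measured, 15 were lower and 2 higher on day 7, 15 and 3 on day 14, and 16 and 1 on day 21. For all genes the shares were 21.9% and 25.7%, 19.7% and 21.9%, and 18.9% and 20.5%. Myct1 was lower by 0.91 on day 7, whereas Procr, the protein C receptor, was higher by 0.90 and Cd34 by 0.25. The 5 measured genes of aerocytes, the large capillary cells that line the gas-exchange surface, were all lower on days 14, 21 and 35. On those days 19.7%, 18.9% and 12.5% of all genes were lower. Among the aerocyte genes, Ednrb, an endothelin receptor, had log2 fold changes of -0.78, -0.90 and -0.93 on those days. Those of Car4, a carbonic anhydrase, were -0.54, -0.52 and -0.36.

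**Figure D4:**
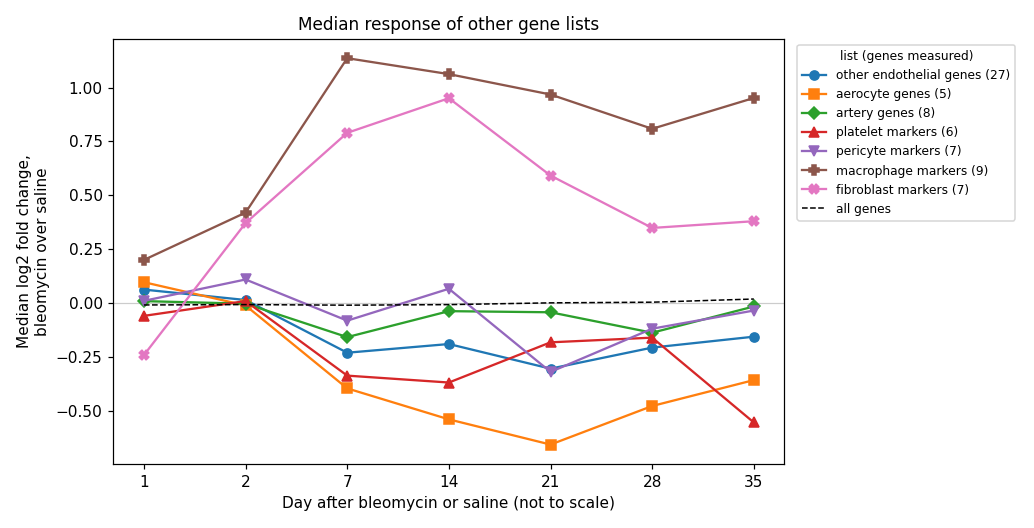
Median log2 fold change (bleomycin over saline) of other endothelial lists and of cell type markers on each day, with the number of genes measured in parentheses and all genes as a dashed line. Aerocyte genes reach -0.66 on day 21, while macrophage markers stand at 1.14 and fibroblast markers at 0.79 on day 7.

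Markers of several other cells moved on the same days. Of all genes, 25.7%, 21.9% and 20.5% were higher on days 7, 14 and 21, and 21.9%, 19.7% and 18.9% were lower. All 9 macrophage markers were higher on day 7 (median log2 fold change 1.14), with a mean level from 11.18 to 11.90 in bleomycin lungs and from 10.09 to 10.62 in saline lungs, and 7 of 9 were higher on days 14 and 21. Of 7 general leukocyte markers, 4 were higher and 1 lower on days 7 and 21. Of 7 fibroblast markers, 5 were higher and 1 lower on day 7, and of 7 pericyte markers, 1 was higher and 3 lower on day 7 and 5 were lower on day 21. Of 4 alveolar type II markers, 3 were lower on day 7 and all 4 on day 14, by a median of -0.11 and -0.15, and 1 was lower on day 21. The 7 alveolar type I markers had a mean level of 12.44 in bleomycin lungs and 12.53 in saline lungs on day 7. Their means were 12.50 and 12.53 on day 14, and 12.67 and 12.57 on day 21. Both measured markers of dividing cells, Cdk1 and Aurkb, were higher on day 7 by 2.03 and 1.99. The part of these cells in the endothelial decreases was not tested.

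Bleomycin lungs differed from each other more than saline lungs did at late times. On day 21 the SD was larger in bleomycin lungs for 33 of the 36 genes, against 61.2% of all genes, with a median SD of 0.41 in bleomycin lungs and 0.13 in saline lungs. The corresponding counts were 32 on day 28 and 30 on day 35 (64.8% and 65.1% of all genes), and 17 on day 1 (45.6%). Single lungs held the lowest level of their group for many genes: bleomycin day 28 replicate 2 for 25 of the 36, bleomycin day 14 replicate 4 and day 21 replicate 7 for 20 each, and bleomycin day 7 replicate 6 for 19. Without day 28 replicate 2, 14 genes were lower on day 28, with Apln, Tmem100, Pecam1, Esam and Clec14a no longer called (adjusted p between 0.051 and 0.089). Without day 21 replicate 7, 25 were lower on day 21, with Cdh5 and S1pr1 no longer called (adjusted p = 0.11 and 0.12). Without day 14 replicate 4, 20 were lower on day 14, with Esam no longer called, and without day 7 replicate 6 the 25 genes lower on day 7 were the same.

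Levels in saline lungs were not fixed over time. An F test over the 7 days called 15 of the 36 genes among saline lungs, against 54.1% of all genes. After Npr3, the widest ranges of day means were those of Calcrl (0.99), Erg (0.68), Sox18 (0.63) and S1pr1 (0.59). The labels give no array batch, so day and batch cannot be told apart in these values. S1pr1, the sphingosine 1-phosphate receptor that tightens endothelial junctions, was higher in bleomycin lungs on day 1 (11.33 ± 0.23, against 10.86 ± 0.20 in saline lungs, SD, n = 8 each, adjusted p = 0.00054), the day on which its saline mean was lowest.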

How the data were processed

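The deposited values were log2 expression levels that the authors made by robust multi-array averaging (RMA) after remapping probes to genes and removing probes that matched several genes, and they were used without further scaling. The authors removed 1 saline array of day 14 after principal component analysis. The genome build of the remapping was not given in the sources used here. Depth has no counterpart on arrays, and the precision is limited by their number. Of 32688 probesets, 27871 were annotated to 1 gene, 314 to several and 4503 to no named gene, and each gene was represented by its most variable single-gene probeset. Symbols came from the platform annotation.

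One linear model with 14 groups was fitted with limma 3.58.1 in R 4.3.3, and p-values were adjusted by Benjamini-Hochberg within each contrast over 15707 genes. The methods' analysis of variance was replaced by this moderated fit, which was tested on simulated data. Each array was 1 mouse. Genes given with full values were the 2 largest increases and decreases among called genes on each day, Pecam1, Cdh5 and Vwf, and the 2 largest changes of each class on days 7 or 14. Other genes were given for their roles, after their values were seen. The genes and lists were chosen with earlier results of these data known. Alternatives changed the probeset, filter, scaling, weights, fit and arrays.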

Additional observations from a re-analysis of the deposited data

Results flagged for a closer look

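Among 90 groups of class means and single genes examined for 1 mouse far from the rest, 3 stood out, where chance gives about 1 in 20. The mean level of the large-vessel genes was 8.872 in bleomycin day 1 replicate 2, with the nearest lung at 8.60, and 8.955 in bleomycin day 28 replicate 8, with the nearest at 8.36. The mean level of the pan-endothelial genes was 10.62 in saline day 7 replicate 3, with the nearest at 10.93.

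The response of several genes differed between periods by the test of the difference itself. From days 1 and 2 to days 7 and 14, the log2 fold change moved by -1.37 for Npr3, -0.789 for Sele, -0.749 for Lyve1, -0.687 for Apln, -0.579 for Clec14a, -0.564 for Eng and -0.55 for Erg. The movement was smaller for Plvap (-0.456), Cdh5 (-0.419), Pecam1 (-0.285) and Tie1 (-0.26), and Prox1 moved up by 0.783. From days 7 and 14 to days 21, 28 and 35, the log2 fold change moved by 0.657 for Npr3 and by -0.301 for Vwf.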

How the results depend on the processing

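The 16 alternatives, of which 6 (leaving out 1 array of saline day 7 or of bleomycin day 7, 14, 21 or 28) were chosen after seeing the data, reversed none of the named genes on their day of largest change. Such values kept their call 269 times, and 1, Sox17 on day 35, lost it with the brightest probeset (0.17, adjusted p = 0.065). Many of these comparisons could hardly change. Genes with 1 probeset keep their values under another choice of probeset. Leaving out an array of another day leaves the fold change as it was. Most named genes were also chosen from these data for their large changes, so the count of kept calls does not measure robustness. The number of lower genes stayed between 24 and 28 on day 7, 20 and 24 on day 14, 24 and 28 on day 21, 14 and 22 on day 28, and 15 and 22 on day 35.

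Small counts moved more. With the brightest probeset, the capillary median on day 7 was -0.48, 2 genes were higher on day 21 and 2 moved down between the later periods. With the mean of the probesets, 1 was higher on day 14. Without the dimmest 30% of genes, 2 were higher on day 2 and 1 on day 7, and the large-vessel median was -0.023 on day 7, -0.27 on day 21, -0.17 on day 35 and 0.12 for the change from days 1 and 2 to days 7 and 14. Subtracting array medians left 1 lower on day 1 (Tie1 was lost) and 4 moving up between the later periods. Array weights gave 9 lower on day 2, 4 higher on day 14, 3 moving up between the first periods, and 6 up and 3 down between the later ones. Leaving out single arrays gave 1 to 2 higher on day 21 (2 without bleomycin day 21 replicate 4), 1 to 2 moving up between the later periods (1 without bleomycin day 7 replicate 6) and 1 to 2 moving down (2 without bleomycin day 21 replicate 4 or 7, day 14 replicate 4 or day 7 replicate 6).

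Replicate numbers were not used as pairs in the main fit. Same-numbered bleomycin and saline lungs correlated in their deviations from -0.33 to 0.41, above 0.1 in 23 of 55 pairs. Lungs with different numbers were not compared, so these values cannot decide whether the numbers pair the samples. With the replicate block, 26 genes were lower on day 7, 21 on day 14 and 2 moved down between the later periods. Fitting each day alone gives no test between periods. Array signal limits the dim genes, of which Selp, Sele and Sox7 lay among the dimmest 30%.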
